A study of Mus musculus with 2 samples.

Results

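The 10 genes described here are the mouse genes for YAP (Yap1), TAZ (Wwtr1), 3 TEAD factors (Tead1, Tead3 and Tead4), 2 vestigial-like cofactors (Vgll3 and Vgll4), the kinases LATS1 and LATS2, and the angiomotin family protein AMOTL2. Their open chromatin was read from an ATAC-seq peak table, and their members are the 67 peaks, of 63316 in all, that the table assigns to their symbols, out of 16934 genes with a peak. ATAC-seq marks DNA that a transposase can reach, so each value below is a measure of chromatin accessibility and not of RNA or protein. The series asked how loss of Piezo2, a mechanically gated ion channel, changes the accessible chromatin of cardiac fibroblasts activated by TGF-β. Primary mouse cardiac fibroblasts treated with TGF-β were compared in 2 libraries, 1 with a non-targeting control siRNA (NC) and 1 with an siRNA against Piezo2 (siPiezo2). Both conditions received TGF-β, so there is no untreated state. The mouse strains of the study were on a C57BL/6 J background, while the age and sex of the mice used here and the number of hearts behind each library are not given in the sources used here. The series text names a Tet3 deletion by a Cre virus in place of an siRNA, and the methods describe homogenized tissue and a different ATAC-seq kit from the one in the labels. These differences were not settled, and the material and groups here are those of the sample labels.

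Hippo signalling limits YAP and TAZ. The kinases Stk3 and Stk4 activate LATS1 and LATS2, which phosphorylate YAP and TAZ so that they are kept in the cytoplasm and degraded. Unphosphorylated YAP and TAZ enter the nucleus and act through TEAD factors, which bind the DNA element CATTCC. Vestigial-like proteins bind the same TEAD factors, VGLL4 as a competitor that represses. Angiomotin proteins hold YAP outside the nucleus, and both Lats2 and Amotl2 are known as feedback targets of YAP and TAZ. In fibroblasts the pathway is known to respond to stiffness and actin tension and to take part in myofibroblast activation.

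Accessibility at these genes was lower in siPiezo2 than in NC at more peaks than not, by about the same margin as in the table as a whole. Of the 67 peaks, 46 (68.7%) had a lower density in siPiezo2, against 63.7% of all peaks. The median log2 ratio of siPiezo2 over NC was −0.21 (quartiles −0.47 and 0.076), against −0.13 (quartiles −0.41 and 0.12) over all peaks. Past 1.5-fold, which here means a ratio under 0.66 or over 1.5 after 1 was added to each density, 9 of the 67 peaks (13.4%) were lower and 1 (1.49%) was higher. Over all peaks 13.5% were lower and 3.21% were higher, so the share of lower peaks at these genes was that of the background. By gene, with densities summed over its peaks, 7 of 10 genes had a lower value in siPiezo2 and 3 a higher one. Tead3 alone was past 1.5-fold, at a ratio of 0.657 before 1 was added to each density and a log2 ratio of −0.6003 after. Of all genes 6.21% were lower and 1.54% were higher by that rule.

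With 1 library for each condition there is no replicate error, no test was run, and no difference below was shown to exceed the spread between cultures. Each ratio is given with a 95% exact interval (Clopper-Pearson, on the whole reads recovered from the densities), which covers counting error only. By that interval 15 of the 67 peaks (22.4%) lay below 0 and 1 (1.49%) lay above, against 13.8% and 4.03% of all peaks. At 21045 peaks called in both libraries and read as deeply as the members, siPiezo2 reads were set against those expected at equal density. Their variance about that expectation was 2.34 times that of counting error alone, with any real differences included. With intervals widened to that variance 2 member peaks, both called only in NC, stayed below 0 and none stayed above, against 4.08% and 0.982% of all peaks, and 3 genes stayed below 0 (Wwtr1, Tead3 and Vgll4), against 7.13% of all genes. Without widening, 6 of the 10 gene intervals lay below 0 and 0 above, against 17.4% and 4.56% of all genes; genes with more peaks have narrower intervals. These gene counts depend on the scaling described next. Under median-of-ratios scaling, equal total density and recovered reads at equal total, 2, 3 and 3 gene intervals lay below 0. Of all genes 8.34%, 11.1% and 8.39% did. Above 0 lay 0, 0 and 1 of the 10, against 11.3%, 8.24% and 9.36% of all genes. With widening 1, 2 and 3 then stayed below 0, Tead3 in each, against 3.02%, 4.19% and 3.01% of all genes.

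The libraries held 4615335 reads (NC) and 2754046 reads (siPiezo2) in windows of 2000 bp around the summits of all peaks, with medians of 74 and 44 reads at the member peaks. The difference in depth moves with the peak calls: 40553 peaks of the table were called only in NC and 1365 only in siPiezo2. Of the members, 30 were called in both, 37 only in NC and 0 only in siPiezo2. Peaks called only in NC were chosen in part for a high NC value, and they carried the lower ratios: their median was −0.34 for the members and −0.23 for all such peaks, against −0.11 and 0.0025 for peaks called in both. The scaling between libraries matters too. The median of all peaks was −0.13 with the deposited densities, 0 after median-of-ratios scaling, −0.050 at equal total density and 0.021 for recovered reads at equal total, and the member median was −0.08, −0.12 and −0.09 under those 3 other scalings. Lower and higher calls among the members were then 3 and 2, 7 and 2, and 7 and 3, in place of 9 and 1. Of all calls in the table, the lower ones made up 80.8% with the deposited densities and 57.1%, 67.0% and 48.1% under the others.

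The label of the cells was checked with marker genes. Of 8 cardiac fibroblast markers 7 had peaks, each with a peak no farther than 1 kb from a transcription start (TSS), and Thy1 had none. Of the 7, 6 were lower in siPiezo2 and 1 higher (median log2 ratio −0.16), 0 of them past 1.5-fold. Col1a1 (−0.44, interval −0.75 to −0.17) and Col1a2 (−0.50, interval −0.81 to −0.23) were the 2 with an interval below 0. The cardiomyocyte markers Myh6, Nppa, Tnni3 and Myl2 had no peak. Tnnt2 and Actn2, the other cardiomyocyte markers, had 2 peaks each, with 1 of the Actn2 peaks at a TSS. Markers of endothelial cells and macrophages had peaks in 4 of 5 and 3 of 5 genes, none of them at a TSS, and those of pericytes and smooth muscle in 4 of 5. Of the pericyte and smooth muscle markers, Myh11 had 1 peak at a TSS. Among these other cell types, Cdh5 of endothelial cells was higher in siPiezo2 (47.7 to 78.0 reads per kb) and Rgs5 of pericytes was lower (127 to 56.0), the genes past 1.5-fold in those lists. Others of the same lists differed from them: Erg measured 150.1 and 115.5 (−0.37, interval −0.66 to −0.14), Kdr had a log2 ratio of −0.098, and Cspg4 and Abcc9 had 0.16 and 0.095, with intervals that hold 0 for the last 3. Pecam1 lay near 0 (0.0068, interval −0.26 to 0.25). Myh11 was lower, as Rgs5 was, with an interval that holds 0 (−0.23, −0.51 to 0.014). The list totals were 352 in NC and 347 in siPiezo2 for endothelial cells and 443 and 371 for pericytes and smooth muscle. The 3 macrophage and leukocyte markers with peaks were all lower in siPiezo2 (total 183 and 151, median log2 ratio −0.25), none past 1.5-fold and each with an interval that holds 0. In a bulk library fewer cells of a type and less accessibility per cell cannot be told apart, and the part of these changes in the members' values was not tested. As points of reference, Acta2, the smooth muscle actin of myofibroblasts, fell from 165 to 43.2 in summed density (log2 ratio −1.91, interval −2.37 to −1.59), and Piezo2 itself measured 334 in NC and 242 in siPiezo2 (−0.46, interval −0.67 to −0.31). Accessibility at Piezo2 does not check the knockdown, since an siRNA acts on RNA.

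**Figure D1:**
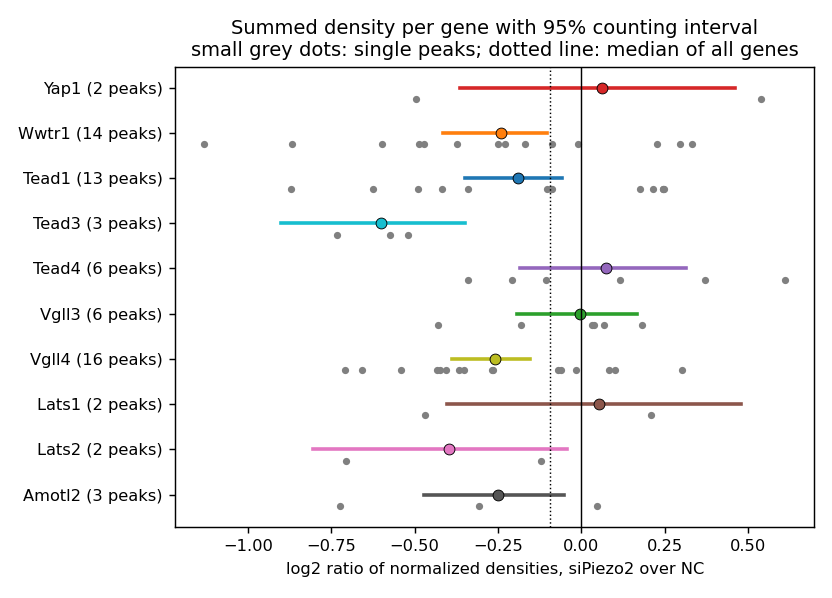
Log2 ratio of siPiezo2 over NC (x axis) for the 10 genes (rows), from normalized densities summed over each gene's peaks. Large points are the gene values, bars are 95% counting intervals, small grey dots are single peaks, and the dotted line is the median of all genes, −0.093; Tead3 lies farthest to the left at −0.60, and Yap1, Lats1 and Tead4 lie slightly above 0.

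Yap1 and Wwtr1 encode the coactivators themselves. Yap1 (ENSMUSG00000053110) had 2 peaks, both intronic, and they went in opposite directions. The peak in intron 5 of 7 (chr9:7943941-7944404; all peak positions are those of the table, on GRCm39) measured 22.9 reads per kb in NC and 33.7 in siPiezo2, a log2 ratio of 0.54 (interval −0.01 to 1.13). The peak in intron 2 of 7 (chr9:7979211-7979470) measured 28.5 in NC and 19.9 in siPiezo2, a log2 ratio of −0.50 (interval −1.19 to 0.086). Neither passed 1.5-fold with the deposited densities, but the intron 5 peak was higher past it under all 3 other scalings (0.63 to 0.70). The summed density was 51.4 in NC and 53.6 in siPiezo2 (0.060, interval −0.36 to 0.46). No member peak lay at the Yap1 start, because the table gives the peak just outside the 5′ end of the gene (chr9:8004643-8005018) to the neighbouring Gm45494. That peak, picked out after its values were seen, measured 24.8 in NC and 23.6 in siPiezo2 (−0.068, interval −0.71 to 0.53), so the accessible site beside the Yap1 start showed no difference detectable at 59 and 38 reads.

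The promoter of Yap1 is shown because it holds the element that TEAD factors bind. Promoter windows here run from 250 bases before to 50 bases after a RefSeq start on GRCm38.p6. They are matched to members by symbol and were not placed against the peaks, whose coordinates are on another build. Capitals mark CATTCC or its reverse complement GGAATG.
Yap1, chr9:8004547-8004846, minus strand: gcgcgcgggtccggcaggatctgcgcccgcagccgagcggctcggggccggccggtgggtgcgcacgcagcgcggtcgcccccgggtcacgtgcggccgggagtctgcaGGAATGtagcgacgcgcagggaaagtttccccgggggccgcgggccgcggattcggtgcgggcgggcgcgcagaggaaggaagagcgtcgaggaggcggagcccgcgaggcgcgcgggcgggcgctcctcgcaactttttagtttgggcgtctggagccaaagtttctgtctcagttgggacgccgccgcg

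Wwtr1 (ENSMUSG00000027803), which encodes TAZ, was lower over the gene as a whole. Its 14 peaks summed to 390.0 in NC and 330.0 in siPiezo2, a log2 ratio of −0.24 (interval −0.41 to −0.10), and 11 of the 14 had a lower value in siPiezo2. The gene value stayed below 0 under the 3 other scalings (−0.10 to −0.15). Its counting interval did so only at equal total density, and its widened interval under none of them. The strongest peak was the promoter (chr3:57483064-57484142), 83.7 in NC and 70.2 in siPiezo2, with an interval that holds 0 (−0.25, −0.61 to 0.082). The lowest ratios lay far inside the gene. The peak in intron 4 of 6 (chr3:57382557-57382757) fell from 20.04 to 8.61 (45 and 14 reads; −1.13, interval −2.27 to −0.40), the lowest ratio among the 67 member peaks. The peak in intron 3 of 6 (chr3:57388179-57388469) fell from 18.7 to 9.78 (42 and 16 reads; −0.87, interval −1.92 to −0.13). Both are weak sites, called only in NC, and both were past 1.5-fold under all 3 other scalings as well. Their widened intervals held 0 (−2.82 to 0.041 and −2.44 to 0.30). A peak in intron 2 (chr3:57429305-57429658), called in both libraries, measured 32.8 and 21.3 (−0.60), which is just inside 1.5-fold. The other 10 intronic peaks lay between 15.5 and 30.8 in NC, and their intervals held 0; the least changed, at chr3:57440512-57440796, measured 27.8 and 27.6.

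The promoter of Wwtr1 has 2 overlapping windows that share 1 TEAD element, which is of the same orientation as that of Yap1; the upstream window is given.
Wwtr1, chr3:57575861-57576160, minus strand: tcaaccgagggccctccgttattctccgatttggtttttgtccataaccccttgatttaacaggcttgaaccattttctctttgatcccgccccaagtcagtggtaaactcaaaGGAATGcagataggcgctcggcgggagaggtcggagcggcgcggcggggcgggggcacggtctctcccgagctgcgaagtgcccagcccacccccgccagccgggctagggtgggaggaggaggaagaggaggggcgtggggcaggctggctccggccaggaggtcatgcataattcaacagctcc

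The 3 TEAD genes, which encode the DNA-binding partners of YAP and TAZ, did not move together. Tead3 had the lowest gene value of all 10 members, Tead1 was lower at its promoter and at an intronic site, and Tead4 lay near 0 and held the 1 member peak that was higher with the deposited densities. Tead2, the remaining TEAD gene, had no peak in the table.

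Tead3 (ENSMUSG00000002249) was lower at each of its 3 peaks. The intron 2 of 12 peak (chr17:28559512-28560349), the strongest, measured 69.7 in NC and 48.3 in siPiezo2 (−0.52, interval −0.95 to −0.14). The promoter peak just inside the gene (chr17:28569317-28569532) fell from 43.0 to 25.5 (106 and 40 reads; −0.73, interval −1.34 to −0.24), a call lost under 1 of the 3 other scalings. The promoter peak at the start itself (chr17:28569623-28570040) measured 40.2 and 26.7 (−0.57, interval −1.17 to −0.076). The windows of the 2 promoter peaks overlap, so they share reads and are not separate evidence; without that overlap the gene value was −0.60 (interval −0.95 to −0.31). Summed over all 3 peaks the density was 153 in NC and 101 in siPiezo2, a log2 ratio of −0.60 (interval −0.90 to −0.35). That value sits at the edge of the 1.5-fold threshold: under the 3 other scalings it was −0.46, −0.51 and −0.57, lower in each but not past the threshold, and 0 of the 10 genes were then past it.

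Tead3 had 4 TEAD elements over 3 promoter windows, more than any of the other 7 genes with windows, which have 1 or 2 windows each. The window below holds 3 of them, a pair separated by 3 bases upstream of the start and another just downstream.
Tead3, chr17:28350551-28350850, minus strand: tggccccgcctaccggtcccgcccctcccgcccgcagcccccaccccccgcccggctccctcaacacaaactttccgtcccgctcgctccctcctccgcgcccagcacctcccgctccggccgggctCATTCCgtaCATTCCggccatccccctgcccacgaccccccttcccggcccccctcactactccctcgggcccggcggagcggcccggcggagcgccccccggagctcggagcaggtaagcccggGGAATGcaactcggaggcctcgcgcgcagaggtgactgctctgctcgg

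Tead1 (ENSMUSG00000055320) had 13 peaks spread along the gene, 8 of them lower in siPiezo2. The promoter (chr7:112278033-112278670) fell from 55.6 to 35.7 (141 and 55 reads; −0.62, interval −1.13 to −0.20) and was called in both libraries. The call was lost under 2 of the 3 other scalings. A site in intron 1 of 11 (chr7:112312472-112312822), 34122 bp from the 5′ end, fell from 40.2 to 21.5 (98 and 34 reads; −0.87, interval −1.54 to −0.35). It was past the threshold under all 3 other scalings, and its widened interval was −1.87 to −0.06. It was called only in NC, and the widened interval, whose variance comes from peaks called in both libraries, does not cover that selection. The next site along (chr7:112319253-112319755), the strongest of the gene, measured 63.3 and 44.7 (−0.49, interval −0.94 to −0.096). Between these and the promoter lay 4 intronic peaks, at 6705 to 24270 bp from the 5′ end, with log2 ratios of −0.10, 0.18, 0.24 and 0.21, all with intervals that hold 0. Summed over the gene the density was 440 in NC and 385 in siPiezo2 (−0.19, interval −0.35 to −0.059), and the log2 ratio was −0.051 to −0.10 under the other scalings. The gene's interval was below 0 under none of those scalings. With the deposited densities its widened interval held 0 (−0.43 to 0.010).

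Tead4 (ENSMUSG00000030353) had 6 weaker peaks, 3 lower and 3 higher. Its strongest, in the 5′ UTR at the start (chr6:128277308-128277947), measured 38.6 in NC and 35.8 in siPiezo2 (−0.11, interval −0.62 to 0.37). A second start, within the gene (chr6:128252562-128252821), measured 18.5 and 20.2 (0.12, interval −0.59 to 0.80). The 1 member peak that was higher past 1.5-fold with the deposited densities lies in intron 2 of 11 (chr6:128242229-128242518), rising from 19.0 to 29.6 (0.61, interval 0.022 to 1.26). It had more reads in siPiezo2 than in NC, 48 against 45, although that library is the shallower, and it was higher under all 3 other scalings. Its widened interval held 0 (−0.30 to 1.59). Over the gene the density was 136 in NC and 143 in siPiezo2 (0.075, interval −0.19 to 0.31).

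**Figure D2:**
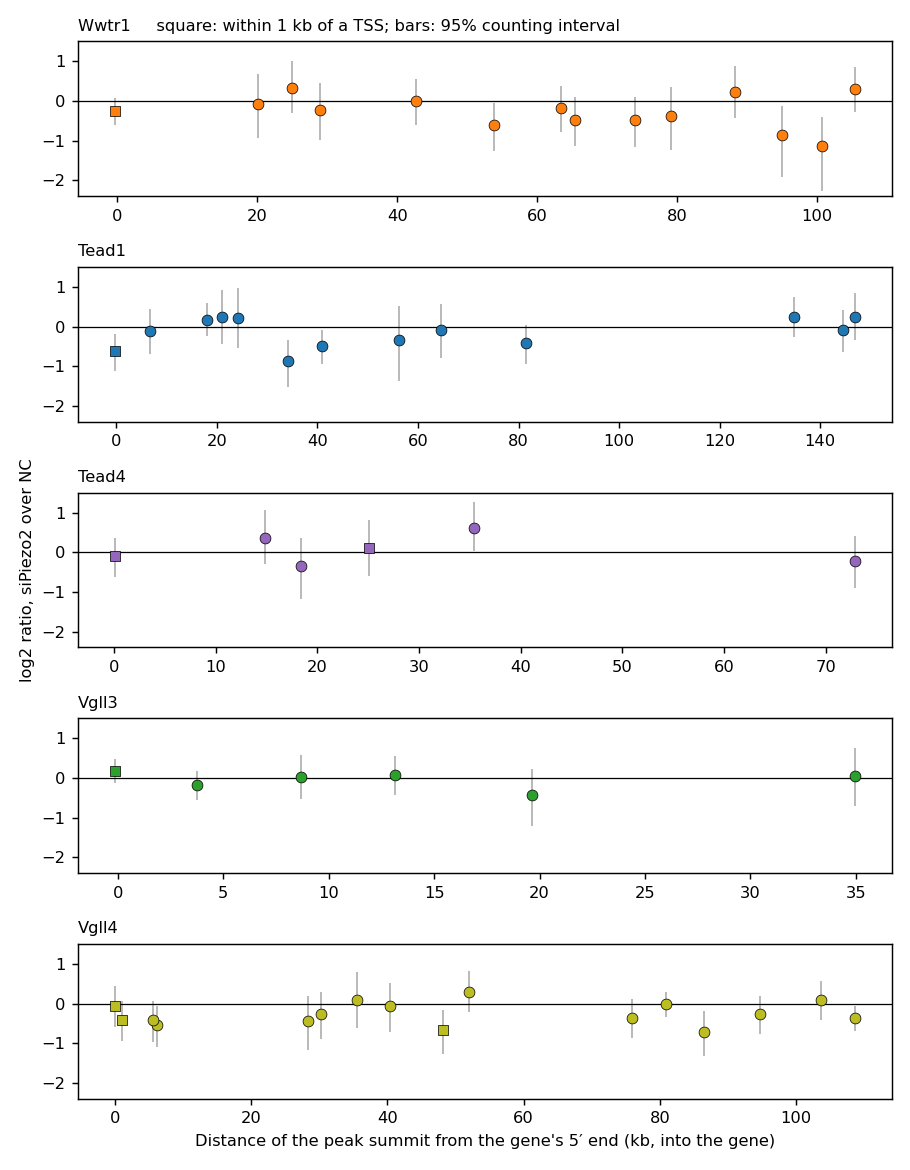
Log2 ratio of siPiezo2 over NC (y axis) for every peak of the 5 members with 6 or more peaks, against the distance of its summit from the gene's 5′ end in kb (x axis, a different range in each panel). Squares are peaks within 1 kb of a TSS, circles are other peaks, and bars are 95% counting intervals; the lowest points are 2 intronic sites of Wwtr1 at 95 to 101 kb and 1 of Tead1 at 34.1 kb.

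Vgll3 and Vgll4 encode cofactors that bind TEAD factors in place of YAP and TAZ. Vgll3 (ENSMUSG00000091243) differed between the libraries by less than counting error. Its promoter (chr16:65611723-65612317), among the strongest member peaks, measured 86.1 in NC and 97.9 in siPiezo2 (0.18, interval −0.13 to 0.49). The next site, in intron 1 of 3 (chr16:65615693-65616129), measured 76.3 and 67.2 (−0.18, interval −0.55 to 0.16). The other 4 peaks lay between 17.8 and 35.9 in NC and had log2 ratios from −0.43 to 0.069, all with intervals that hold 0. The gene summed to 267.7 in NC and 267.1 in siPiezo2 (−0.0029, interval −0.19 to 0.17), and its sign depended on the scaling (−0.016 to 0.14 under the other 3).

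The RefSeq promoter window of Vgll3 is shown because it holds a TEAD element at a gene whose interval holds 0; whether the element lies in the promoter peak was not determined.
Vgll3, chr16:65814939-65815238, plus strand: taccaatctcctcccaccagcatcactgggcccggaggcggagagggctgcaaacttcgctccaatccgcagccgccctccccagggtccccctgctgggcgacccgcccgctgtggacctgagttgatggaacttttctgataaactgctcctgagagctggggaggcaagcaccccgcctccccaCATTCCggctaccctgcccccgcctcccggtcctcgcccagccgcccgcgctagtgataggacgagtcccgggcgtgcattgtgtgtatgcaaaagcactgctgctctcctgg

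Vgll4 (ENSMUSG00000030315) had the most peaks, 16, and 13 of them were lower in siPiezo2. Summed, they gave 691 in NC and 578 in siPiezo2 (−0.26, interval −0.39 to −0.15). The gene value and its interval stayed below 0 under the 3 other scalings (values −0.12 to −0.23). Under median-of-ratios scaling the widened interval of Vgll4 did not. The strongest of all 67 member peaks lies just beyond its 3′ end (chr6:114837928-114838548), 106.5 in NC and 82.4 in siPiezo2 (−0.37, interval −0.70 to −0.066). An internal promoter (chr6:114898647-114899014), 48125 bp from the 5′ end, fell from 40.7 to 25.4 (−0.66, interval −1.27 to −0.16), but its call was lost under all 3 other scalings. At the 5′ end, the start (chr6:114946682-114947069) measured 34.5 and 33.0 (−0.062, interval −0.60 to 0.44), and a second 5′ UTR peak (chr6:114945822-114946026) measured 41.9 and 31.3 (−0.41, interval −0.95 to 0.070). The intervals of these 3 start peaks overlap. A site in intron 2 of 4 (chr6:114860274-114860690) fell from 40.02 to 24.1 (−0.71, interval −1.33 to −0.20), a call lost under 1 of the other scalings. Its neighbour in the same intron (chr6:114865844-114866359), the second strongest of the gene, measured 90.7 and 89.6 (−0.017, interval −0.34 to 0.29). A pair of peaks 5610 and 6148 bp into the gene share reads and measured 41.5 and 30.7, and 44.2 and 30.1.

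Lats1 and Lats2 encode the kinases that phosphorylate YAP and TAZ, and Amotl2 encodes a protein that binds YAP. Lats1 (ENSMUSG00000040021) had 2 peaks. The one at its start, in intron 1 of 7 (chr10:7557150-7557711), measured 33.5 in NC and 38.8 in siPiezo2 (0.21, interval −0.30 to 0.70). The other, in intron 2 (chr10:7571146-7571350), was the weakest NC value among the members, 12.04 and 8.41 (26 and 14 reads; −0.47, interval −1.61 to 0.43). The gene value was 0.052 (interval −0.40 to 0.48), from 45.6 in NC and 47.3 in siPiezo2.

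Lats2 (ENSMUSG00000021959) was lower, mainly at 1 of its 2 peaks. The site in intron 1 of 2 (chr14:57991118-57991460) fell from 37.8 to 22.8 (92 and 36 reads; −0.71, interval −1.35 to −0.18), a call lost under 2 of the 3 other scalings. The promoter of a shorter transcript (chr14:57983443-57983762) measured 36.0 and 33.1 (−0.12, interval −0.66 to 0.37). Together they gave 73.8 in NC and 55.9 in siPiezo2 (−0.40, interval −0.80 to −0.044). The gene's interval was below 0 under none of the 3 other scalings, and its widened interval held 0 (−1.02 to 0.15). The table gives 7 further peaks within Lats2 to the gene model Gm49361. With those 7 added, a choice made after their values were seen, Lats2 had 9 peaks with 336 in NC and 269 in siPiezo2 (−0.32, interval −0.51 to −0.16).

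Amotl2 (ENSMUSG00000032531) had the highest mean density per peak of the 10 genes in both libraries, 74.5 in NC and 62.5 in siPiezo2, and its peaks differed from each other. The start site (chr9:102594666-102595280) measured 90.8 in NC and 93.8 in siPiezo2 (0.046, interval −0.27 to 0.35). The intron 4 of 10 peak (chr9:102601151-102601512) fell from 63.3 to 38.0 (162 and 58 reads; −0.72, interval −1.21 to −0.31), a call lost under 1 of the other scalings. Its widened interval was −1.46 to −0.087, with the same limit, since this peak too was called only in NC. The intron 6 peak (chr9:102603419-102603842) measured 69.3 and 55.8 (−0.31, interval −0.71 to 0.061). Summed, Amotl2 went from 223 to 188 (−0.25, interval −0.47 to −0.052), and the gene's widened interval held 0 (−0.59 to 0.054). With the deposited densities that direction rests on the intronic sites, since the start site alone gave a value above 0. Under recovered reads at equal total the start site gave −0.099. That was the only other scaling with the gene interval below 0.

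The Amotl2 window is printed for its TEAD element. It was not placed against the start site peak, whose summit lies 972 bp inside the 5′ end of the gene.
Amotl2, chr9:102717554-102717853, plus strand: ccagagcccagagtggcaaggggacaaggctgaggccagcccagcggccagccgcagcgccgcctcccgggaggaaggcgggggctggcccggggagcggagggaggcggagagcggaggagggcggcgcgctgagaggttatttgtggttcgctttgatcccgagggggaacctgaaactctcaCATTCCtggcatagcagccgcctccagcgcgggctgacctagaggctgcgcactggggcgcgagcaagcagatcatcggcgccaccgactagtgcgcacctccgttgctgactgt

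**Figure D3:**
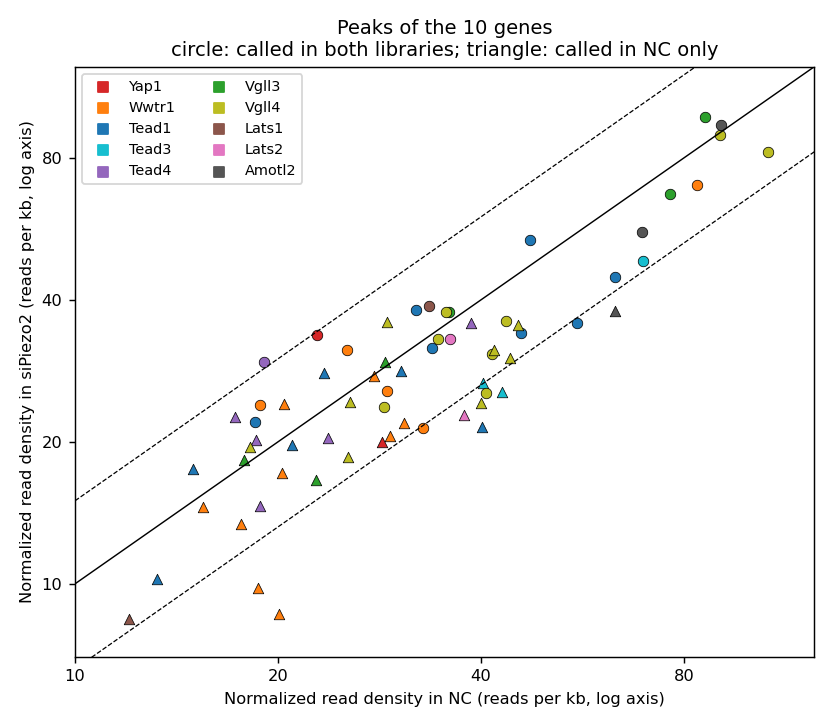
Normalized read density in siPiezo2 (y axis) against NC (x axis), in reads per kb on log axes, for the 67 peaks of the 10 genes, coloured by gene. Circles were called in both libraries and triangles only in NC, the solid line marks equal density and the dashed lines 0.66 and 1.5 times NC; 9 peaks are below the lower line and 1 above the upper once 1 is added to each density, and the densest sites lie close to the solid line or moderately below it.

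For the 13 member peaks within 1 kb of a TSS the median was −0.12, and for all 14801 such peaks it was −0.042, and 3 of the 13 (23.1%; Tead1, Tead3 and Vgll4) were lower past 1.5-fold, against 6.43% of all such peaks. Under median-of-ratios scaling, equal total density and recovered reads at equal total, 0, 1 and 2 of the 13 were, against 3.52%, 4.34% and 3.73% of all. For the 53 member peaks classed as intronic it was −0.18, and for all 26569 intronic peaks −0.17. Among the strongest member sites, those over 80 reads per kb in NC, the densities in siPiezo2 were 70.2 (Wwtr1), 97.9 (Vgll3), 82.4 and 89.6 (Vgll4) and 93.8 (Amotl2), and none was past 1.5-fold.

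Promoter sequence was not used to choose the genes. RefSeq windows were found for 8 of the 10 genes, 12 windows in all, and were not found for Tead1 and Tead4. On either strand, CATTCC occurred in 9 of the 12 windows, in 7 of the 8 genes, and in 14.7% of all 32851 promoter windows. Lats1 was the gene without it. The windows of Wwtr1 overlap, as do those of Tead3, so those 9 are not independent. The AP-1 element TGANTCA was in 0 of the 12 windows and in 7.81% of all windows. The GC box GGGCGG was in 11 of the 12, in all 8 genes, and in 35.7% of all windows, and the member windows are rich in G and C, from 61.7% to 75.3% except for 1 window of Lats2 at 42.7%, against a median of 52.7%. CCAAT was in 1 window, that of Vgll3, and in 37.4% of all. A match of letters is a description and does not show that a factor was bound. The TEAD element was present both at genes with an interval below 0 (Tead3, Wwtr1) and at genes whose interval holds 0 (Vgll3, Yap1).

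The rest of the pathway gave the setting for these values. Of 27 Hippo kinases, scaffolds and upstream regulators 26 had peaks, 0 of them past 1.5-fold in either direction, with a median of −0.14 against −0.093 over all genes. Under the 3 other scalings their median was 0.00094, −0.050 and 0.0026, against 0.043, −0.0076 and 0.030 over all genes. By counting interval, with the deposited densities, 9 of the 26 were lower and 2 higher (17.4% and 4.56% of all genes). Those 2 were the kinases Taok1 and Map4k4 (0.49 and 0.32). Under 2 of the other scalings 1 of the 26 was higher past 1.5-fold, Taok1 and Stk38 respectively. Of the kinases upstream of LATS, Stk4 measured 212 in NC and 159 in siPiezo2 (−0.41, interval −0.65 to −0.21) and Stk3 247 and 226 (−0.13, interval −0.34 to 0.045). Fat4, an upstream cadherin, measured 43.1 and 29.4 (−0.54, interval −1.10 to −0.059). Vgll1 and Vgll2 had no peak.

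Known targets of YAP, TAZ and TEAD had lower ratios than the pathway's own genes, a comparison with no test. Of 24 listed targets 22 had peaks, 18 of them (81.8%) below 0, against 62.6% of all genes, with a median of −0.30. Under the 3 other scalings the target median was −0.16, −0.21 and −0.15, against 0.043, −0.0076 and 0.030 over all genes. With the deposited densities 5 of the 22 (22.7%) were lower past 1.5-fold and 0 were higher, against 6.21% and 1.54% of all genes. The 5 were Thbs1, thrombospondin (446 in NC, 184 in siPiezo2, −1.28, interval −1.49 to −1.11), Tagln, an actin-binding protein of smooth muscle (122 and 61.7, −0.98), and 3 genes widely used as readouts of YAP. Of those 3, Ccn1 fell from 308 to 165 (−0.90, interval −1.13 to −0.71), Ankrd1 from 251 to 158 (−0.67, interval −0.91 to −0.47) and Ccn2 from 403 to 256 (−0.65, interval −0.83 to −0.49). The last 2 were not past 1.5-fold under 2 of the 3 other scalings, and their peaks share windows; with separate windows alone Ankrd1 gave −0.38 and Ccn2 −0.49. Thbs1 also has overlapping windows, and gave −0.84 without them. All 3 peaks of Ccn1, both of Tagln, and 3 of 4 each of Thbs1 and Ankrd1 were called only in NC. Such peaks were chosen in part for a high NC value. Both peaks of Ccn2 were called in both libraries. Under the 3 other scalings, 3, 3 and 5 of the 22 targets were lower past 1.5-fold, against 3.42%, 4.22% and 3.02% of all genes. Several of these targets are also targets of TGF-β itself, and the list was drawn up with earlier results of these data known, so its median is a description.

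**Figure D4:**
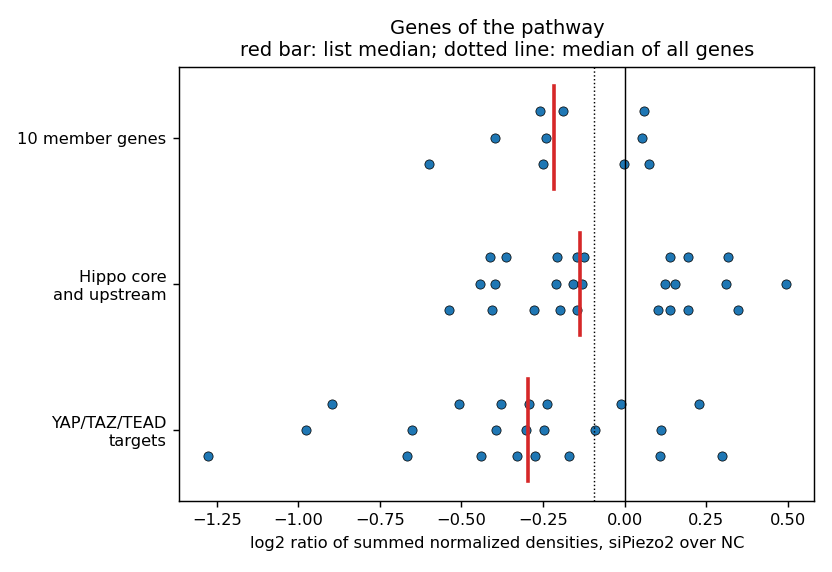
Log2 ratio of siPiezo2 over NC in summed normalized density (x axis) for the 10 genes described here, 26 Hippo core and upstream genes and 22 targets of YAP, TAZ and TEAD (rows; vertical offsets only separate points). Red bars are the list medians, −0.22, −0.14 and −0.30, and the dotted line is the median of all genes, −0.093; the targets extend to −1.28, below the lowest member at −0.60.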

How the data were processed

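ATAC-seq was carried out on 2 libraries of TGF-β-treated mouse cardiac fibroblasts, 1 per condition. The deposited signal is a read density per peak, which the authors normalized between the libraries; the form of that normalization (a straight line fitted to ratio against level, with 1 read added) was inferred from the table's columns and is not named in the methods. Per the labels, reads were aligned with BWA (0.7.12) to mm10, yet the table's gene positions and scaffold names belong to GRCm39; the methods name Picard and MACS2. Further deposited columns hold the authors' comparison (log2 ratios, mean levels, p-values) and were not used. Whole reads were recovered from the densities for 100% of peaks (within 0.05 reads), given the inferred 2000 bp window and added read.

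Log2 ratios were of density plus a pseudocount of 1, without a filter on low values. Gene values were sums over peaks. Intervals were exact binomial intervals of the read ratio, with the inferred fit applied and no pseudocount. With 1 library per group no test was possible. The steps were tested on simulated data (Python 3.11.15, SciPy 1.17.1). Named peaks are each gene's strongest, those within 1 kb of a TSS, and those past 1.5-fold or with an interval off 0; other peaks given with values were chosen after these were seen. Named genes of the lists are those past 1.5-fold, with Ccn1, Ccn2 and Ankrd1. Col1a1, Col1a2, Tnnt2, Actn2, Cdh5, Erg, Kdr, Pecam1, Rgs5, Cspg4, Abcc9, Myh11, Taok1, Map4k4, Stk38, Stk3, Stk4 and Fat4 were named after their values were seen. A further target of the list is not reported here and enters no count or median of it. The members and lists were chosen with earlier results of these data known. Promoter sequences are RefSeq's, on GRCm38.p6. Alternatives varied the pseudocount, scaling, threshold and peak set.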

Additional observations from a re-analysis of the deposited data

How the results depend on the processing

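Pseudocount 0.1 and the removal of the weakest 25% of peaks left the counts of lower and higher member peaks within 1.5 times the values reported. Median-of-ratios scaling gave 3 lower and 2 higher member peaks and moved their median to −0.076, equal total density gave 2 higher, recovered reads at equal total gave 3 higher, a threshold of 2-fold left 1 lower and 0 higher, and peaks called in both libraries held 2 lower. The shares over all peaks moved with the scaling too, as given above. Of the 9 lower peaks 3 were called under all 3 scalings (2 of Wwtr1, 1 of Tead1), and 1 (Vgll4) under none of them. The 3 kept were called only in NC; the 2 lower peaks called in both libraries, of Tead1 and Vgll4, were kept under 1 and 0. Of 81 recomputed gene values 72 stayed inside their counting interval. Median-of-ratios scaling moved Wwtr1 to −0.10, Tead1 to −0.051 and Vgll4 to −0.12, outside theirs. In 7 the sign changed, 3 for Vgll3 and 1 each for Yap1, Lats1, Tead4 and Amotl2; of these genes only Amotl2 had an interval off 0, and its TSS peak alone gave 0.046. Without their strongest peak Yap1 and Lats1 moved to −0.50 and −0.47. All 104 recomputed values of named peaks stayed inside their intervals. No paired analysis was possible because each condition has 1 library. Depth limits single sites most: at a median of 74 and 44 reads, the half-width of a member peak's interval had a median of 0.57 on the log2 scale.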

Other observations

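Sites that the table assigns to other genes or to no gene, but that it places nearest to a member, or that lie inside a member or at its start, were looked at after their values were seen. There were 29, of which 23 (79.3%) were lower in siPiezo2, 7 (24.1%) past 1.5-fold, and 0 higher past it. Over all peaks those shares were 63.7%, 13.5% and 3.21%, and of peaks called only in NC 18.3% were lower past 1.5-fold. The 6 sites around Vgll3 were all lower, 5 of them past 1.5-fold, while the peaks inside Vgll3 were not. Of those 5, only the site at chr16:65796191-65796661 was called in both libraries. The others, with those given below, were called only in NC, which selects in part for a high NC value. Of the 6 peaks inside Vgll3, 3 were called in both, so the sites around and inside it are not alike in peak calls. The site 124672 bp from its 5′ end (chr16:65736650-65736980) fell from 24.1 to 9.29 reads per kb (55 and 15 reads; −1.29, interval −2.37 to −0.60). The site 53983 bp from it (chr16:65665924-65666329) fell from 28.9 to 14.9 (−0.91, interval −1.73 to −0.30). Downstream of Amotl2 an intergenic site (chr9:102612199-102612400) fell from 73.8 to 29.5 (188 and 45 reads; −1.29, interval −1.85 to −0.87), a larger fall than at any of the 67 peaks assigned to the 10 genes, with more reads behind it than most of them. This site too was called only in NC. Whether any of these sites acts on the nearby member was not tested. Sites upstream of Tead1, within 2310014F06Rik, were mixed: 5 of 7 were lower and 0 were past 1.5-fold in either direction.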
